A study of Mus musculus with 2 samples.

Results

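The JAK kinases and STAT factors examined here are 9 genes, the 4 kinases Jak1, Jak2, Jak3 and Tyk2 and the 5 transcription factors Stat3, Stat4, Stat5a, Stat5b and Stat6, among 22350 protein-coding genes of the GENCODE M1 annotation on chromosomes 1 to 19 and X. DNase I hypersensitive sites (DHS), the regions where chromatin is cut readily by the enzyme DNase I, were assigned to a gene when they overlapped its body or the 50 kb on either side of it, which will be called its window. A DHS was called a promoter DHS of a gene when it overlapped by at least 1 bp the 5 kb before or the 2 kb after an annotated transcription start site (TSS) of that gene. By this rule 119 of the 47542 DHS in the deposited list belonged to the 9 genes. The study sequenced DNA released by DNase I from splenic B cells of C57/Bl6 mice of 8 weeks, with the Trp53+/+ genotype and mock treatment, so that the cells carried intact p53 and had not been irradiated. The cells were enriched on magnetic beads against B220, dying cells were taken out on a Ficoll gradient, and the digest with the best signal over noise in a qPCR test was sequenced. The series has 1 DNaseI library and 1 input library of the same cells, strain, genotype and treatment, and the list of DHS is that of the DNaseI library. Whether the input library served as a control in calling the DHS is not stated. With 1 library there is no replicate error, the depth is unknown and no difference was tested between conditions. The values below describe this library, and the exact binomial and Poisson intervals, all at the 95% level, cover counting error only.

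Cytokine receptors of the class that signals through JAKs have no kinase activity of their own. Janus kinases sit on the cytoplasmic tails of the receptor chains, phosphorylate each other and the receptor when a cytokine brings the chains together, and then phosphorylate STAT proteins, which form dimers, enter the nucleus and bind DNA at palindromes of TTC and GAA. In B cells this route carries the signals of interleukin-4, interleukin-21, interleukin-10 and the interferons, which act on class switching, plasma cell formation and antigen presentation.

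The label of the cells was checked by promoter DHS of marker genes. All 12 B cell markers had a promoter DHS, with top scores from 72.1 at Fcer2a to 332 at Cd74. So did 3 of 12 T cell markers, 3 of 8 NK cell markers, 4 of 9 myeloid markers and 2 of 5 erythroid markers. Of all protein-coding genes 57% had one. The interval of the B cell list (73.5 to 100%) lay above that share. Those of the T cell (5.49 to 57.2%), NK cell (8.52 to 75.5%), myeloid (13.7 to 78.8%) and erythroid lists (5.27 to 85.3%) held it. These short lists thus do not set the markers of other cells apart from genes at large. The genes of the CD3 chains, Cd3e, Cd3d and Cd3g, which define T cells, had none, nor had the neutrophil genes S100a8 and S100a9 or the globin gene Hbb-b1. The 3 T cell markers with a promoter DHS were Cd5 (97.7), Lck (92.8) and Cd247 (32.8). Those of NK cells were Tbx21, Klrb1c and Prf1, with top scores of 16.1 to 32.4, and those of myeloid cells Cd14, Elane, Itgam and Csf3r, with 12.3 to 51.05. Of the erythroid markers, Klf1, a transcription factor gene of red cell precursors, scored 178. The part of other cells in the DHS of the 9 genes was not tested. The score is the value that the peak caller of the authors attached to each DHS. It ran from 5.05 to 619 over the list with a median of 32.65, its scale is not stated, and it is used here for order within this list only.

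The windows of the 9 genes were rich in DHS. They formed 7 separate stretches of 1209 kb in all, since Stat3, Stat5a and Stat5b lie next to each other on chromosome 11, and held 9.85 DHS per 100 kb (Poisson interval 8.16 to 11.8). The chromosomes as a whole held 1.80 per 100 kb, and the windows of all protein-coding genes had a median of 3.38 with quartiles of 0.662 and 6.91. Of the 9 windows, that of Jak3 was the densest, with 19 DHS or 16.6 per 100 kb, a density reached or exceeded by few genes (percentile 98.5). The window of Stat4 was the least dense with these flanks of 50 kb, with 14 DHS or 6.36 per 100 kb (percentile 71.6). The order of the windows changed with the flanks: the gene body of Stat4 alone held 11 DHS or 9.16 per 100 kb, while that of Jak3 held 1 DHS and that of Tyk2 held 0. The other 7 windows held 12 to 18 DHS each, against a median of 5 over the windows of protein-coding genes. In height and width the DHS of the 9 genes lay near the whole list: their median score was 32.26 against 32.65, and their median width was 668 bp against 760 bp. The 63 DHS of the JAK windows had a median score of 32.65 and the 56 of the STAT windows a median of 32.04.

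Of the 119 DHS, 27 (22.7%, 15.5 to 31.3) lay in a promoter of a JAK or STAT gene itself. Promoters of neighbouring genes held 42, the bodies of the 9 genes outside any promoter held 17, bodies of other genes held 21, and 12 were intergenic. Counted together, 69 of 119 (58.0%, 48.6 to 67.0) were in the promoter of some gene, against 47.5% of all DHS. The 27 own promoter DHS had a median score of 52.97, above the median of 32.65 over the list, whereas the 17 DHS in gene bodies had a median of 27.26 and a highest score of 99.4. Of the 119, 10 were at or above the 90th percentile of the list, a score of 128.

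**Figure D1:**
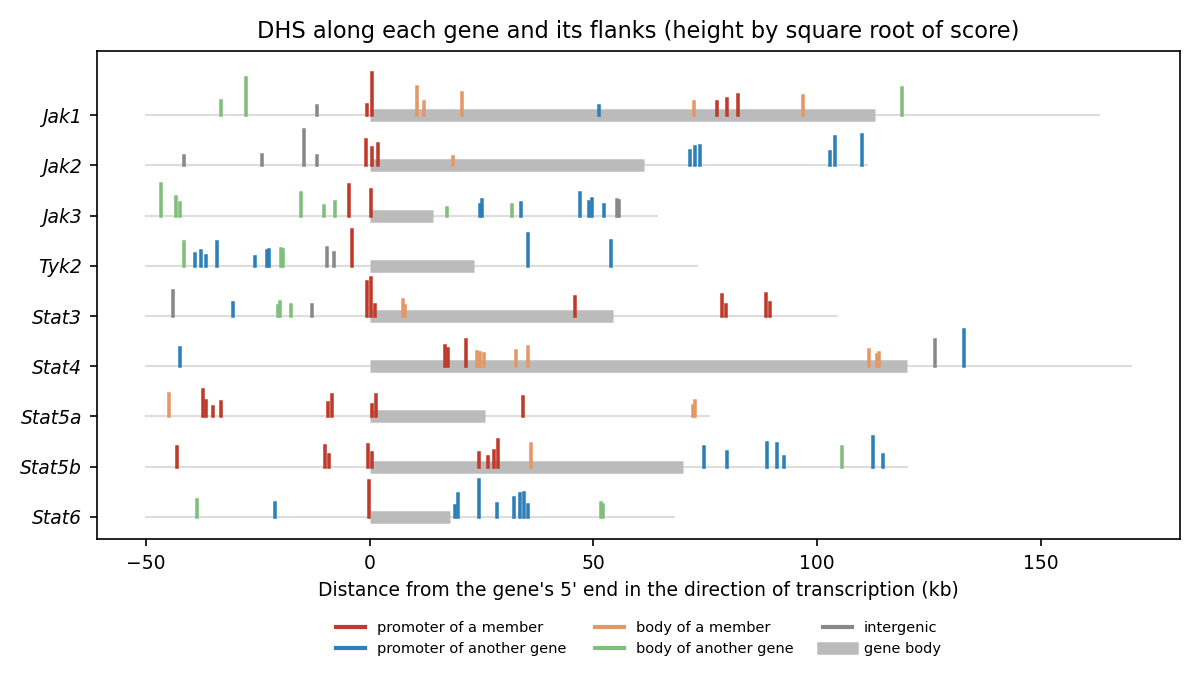
DHS of the 9 genes plotted by distance in kb from the 5′ end of each gene along its direction of transcription (grey bar, gene body; thin line, 50 kb flanks), with tick height by the square root of the score and colour by class. Red marks a promoter of any of the 9 genes, so the rows of Stat3, Stat5a and Stat5b also show red ticks of each other. In 7 rows at least 1 promoter DHS of the gene itself stands at or near the start. Further own ones lie inside the gene at 77.6 to 82.4 kb in Jak1, 45.9 kb in Stat3 and 24.5 to 28.7 kb in Stat5b. In the Tyk2 row the only one is 3868 bp upstream, and in the Stat4 row all lie 16.9 to 21.5 kb inside.

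All 9 genes had a promoter DHS (100%, 66.4 to 100), against 57% of protein-coding genes. A DHS covered an annotated TSS in 7 of the 9, all but Jak2 and Tyk2, against 46.6% of protein-coding genes, and a DHS lay within 1 kb of a TSS in 8, all but Tyk2, against 53.7%. Outside the promoter, a DHS was present in the body of 5 genes, Jak1, Jak2, Stat3, Stat4 and Stat5b, against 22.8% of protein-coding genes. The bodies of Jak3, Tyk2, Stat5a and Stat6 held none outside the promoter. These 4 were also the shortest of the 9, at 14.3 to 25.8 kb, the others spanning 54.4 to 120 kb. Of the 9 genes, 6 had a TSS in CpG-rich sequence, meaning that over 1000 bp the GC content reached 55% and the CpG count reached 0.6 of that predicted from base composition, and all 6 had a promoter DHS. Of all CpG-rich protein-coding genes 85.1% had a promoter DHS.

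Jak1, the kinase shared by the receptors of the interferons, of the interleukin-6 family and of the cytokines that use the common gamma chain, had the strongest promoter DHS of the 9. The gene lies on the minus strand at chr4:100824972-100937887. Its main promoter DHS at chr4:100936882-100938001 scored 227, the 97.6th percentile of all DHS, and covered 5 of the 8 annotated TSSs, among them both of protein-coding transcripts. Among the protein-coding genes with a promoter DHS this top score ranked at percentile 90.9, their median being 101. The 300 bp around the start that RefSeq gives for Jak1 (chr4:100937779-100938078 in mm9, minus strand) are shown because 223 of them lay in this DHS. Capitals mark a GGGGCGG word, the core of the sites of SP factors.

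Jak1 promoter: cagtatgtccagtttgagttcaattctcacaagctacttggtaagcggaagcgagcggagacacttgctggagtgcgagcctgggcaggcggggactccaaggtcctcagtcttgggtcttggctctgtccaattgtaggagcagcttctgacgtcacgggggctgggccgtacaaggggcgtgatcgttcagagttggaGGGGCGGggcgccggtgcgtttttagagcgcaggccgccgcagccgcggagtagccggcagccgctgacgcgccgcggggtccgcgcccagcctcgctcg

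Jak1 had further accessible sites inside the gene. Near an internal start at 100858030, from which only a transcript without a coding label is annotated, 3 DHS with scores of 51.4, 33.8 and 20.9 counted as promoter DHS; their centres lay in introns 4 and 5, and the rule also gives them to a U6 gene model. The fifth promoter DHS, of score 11.9, lay directly upstream of the main one (chr4:100938371-100938713). In intron 1 a promoter DHS of the gene model Gm12785 scored 10.1. The strongest DHS of the body outside the promoters was in intron 1, 10.6 kb from the 5′ end (chr4:100926302-100928278), 1977 bp wide with a score of 99.4. It held 2 copies of GAGGAAGT, a word of the ETS factor PU.1. In the upstream flank, 27.6 kb before the start, a DHS of 2142 bp with a score of 175 lay in the body of the gene model Gm12796 (chr4:100964414-100966555). After the promoter, that site was the highest of the 15 DHS in the window.

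Jak2, the kinase of the receptors for erythropoietin and growth hormone and of the interferon-gamma receptor, had its start between DHS and not under a DHS. The gene (chr19:29326318-29387570, plus strand) has 1 annotated TSS, at 29326318. That position fell into a stretch of 542 bp between a DHS of score 82.5 upstream (chr19:29325283-29325977) and a DHS of score 36.7 downstream (chr19:29326520-29327375), 341 bp from the former and 202 bp from the latter. The third promoter DHS, at chr19:29327465-29328926, scored 58.5. The start that RefSeq gives, 25 bp upstream of the GENCODE TSS, lay in the same gap. The GC content of the gap was 83.0%, against 58.6% and 52.5% in the DHS on either side. The RefSeq promoter (chr19:29326043-29326342, plus strand) had no base in a DHS and is shown for its composition. Capitals mark CCGCCCC, the SP word read on the other strand, and CAGCTG, an E-box of the kind that the B cell factor E2A binds.

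Jak2 promoter: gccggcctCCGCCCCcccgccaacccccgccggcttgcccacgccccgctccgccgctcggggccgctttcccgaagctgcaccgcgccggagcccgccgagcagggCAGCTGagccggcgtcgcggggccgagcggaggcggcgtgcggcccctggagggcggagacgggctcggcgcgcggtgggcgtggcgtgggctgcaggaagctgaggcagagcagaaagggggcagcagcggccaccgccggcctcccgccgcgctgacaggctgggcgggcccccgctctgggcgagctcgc

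Each of the 3 promoter DHS of Jak2 held a STAT word of the form TTCNNNGAA, the palindrome with 3 bases between its arms, which most STAT dimers can bind. Of all DHS 22.7% held such a word. The words are shown in capitals with 12 bases on either side, read on the plus strand.

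Jak2 upstream DHS, chr19:29325617-29325649: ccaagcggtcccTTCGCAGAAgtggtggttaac
Jak2 first downstream DHS, chr19:29327296-29327328: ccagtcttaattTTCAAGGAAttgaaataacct
Jak2 second downstream DHS, chr19:29328223-29328255: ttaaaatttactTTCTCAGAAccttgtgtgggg

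The highest score in the Jak2 window belonged to no promoter. A narrow intergenic DHS of 595 bp, 14.7 kb upstream of the start (chr19:29311295-29311889), scored 158, the 93.7th percentile of the list, and so stood above the own promoter sites. The body of Jak2 held a single DHS outside the promoter, in intron 3, with a score of 8.47, which is among the lowest of the list (percentile 1.83). Beyond the 3′ end lay promoter DHS of Insl6, a relaxin-family hormone gene, with scores up to 49.8, and of Cd274, which encodes the T cell inhibitory ligand PD-L1, with a score of 116. Cd274 shared that DHS with the gene model 5033414D02Rik, whose other promoter DHS scored up to 104.

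Jak3, the kinase that binds the common gamma chain and is used mainly in lymphoid cells, lay in the densest of the 9 windows. Its gene is short (chr8:74200195-74214474, plus strand). A DHS at chr8:74199795-74201157 with a score of 85.8 covered 3 of its 6 annotated TSSs and the RefSeq start, and also fell in promoters of Unc13a and of the gene model Gm9933. The rest of the body, 13317 bp, held no DHS. The top promoter score of 119.95 came from another site, centred 4630 bp upstream (chr8:74194903-74196228), which also fell in a promoter of the synaptic vesicle gene Unc13a, so that the rule gives it to both genes. Within 1 kb of a TSS the top score of Jak3 was 85.8. Upstream of Jak3 the body of Unc13a held 6 DHS outside promoters, the strongest at chr8:74152578-74154417 with a score of 127. Downstream, promoter DHS of B3gnt3, a glycosyltransferase gene, scored 14.4 and 31.8, and 5 promoter DHS of Fcho1, a gene of clathrin-coated pit formation, scored up to 67.3.

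Tyk2, the kinase of the receptors for type I interferon and interleukin-12, was the gene of the 9 without a DHS within 1 kb of an annotated TSS. Its single GENCODE TSS at 20931790 (gene at chr9:20908521-20931790, minus strand) was 3250 bp away from the nearest DHS, and the whole body of 23.3 kb held no DHS. That nearest DHS, at chr9:20935040-20936276, scored 168, which ranks at percentile 80.4 among genes with a promoter DHS. The start that RefSeq gives for Tyk2, at 20935719, was inside it and 3929 bp upstream of the GENCODE TSS. The choice of annotation thus decides whether the Tyk2 start counts as covered. All 300 bases of the RefSeq promoter (chr9:20935670-20935969, minus strand) were in the DHS. They are printed in lower case throughout because none of the words searched was found in them.

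Tyk2 promoter: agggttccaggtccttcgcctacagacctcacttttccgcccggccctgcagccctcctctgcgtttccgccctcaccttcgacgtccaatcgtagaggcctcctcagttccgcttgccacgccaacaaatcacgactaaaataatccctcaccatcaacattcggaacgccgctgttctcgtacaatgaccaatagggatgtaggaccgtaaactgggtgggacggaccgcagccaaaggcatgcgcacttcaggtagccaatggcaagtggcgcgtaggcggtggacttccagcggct

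Upstream of this site the Tyk2 window held promoter DHS of Cdc37, an Hsp90 cochaperone of kinases, with scores of 10.5 to 31.8. The phosphodiesterase gene Pde4a had 4 promoter DHS, the highest at 72.3, and a DHS in its body with a score of 74.6. Beyond the 3′ end of Tyk2 a promoter DHS shared by Raver1 and 1700084C06Rik scored 128 and a promoter DHS of Fdx1l scored 76.3.

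Stat3, the factor of interleukin-6, interleukin-10 and interleukin-21 signals, had the highest promoter score among the STAT genes. The gene lies on the minus strand at chr11:100746412-100800854. Next to its start a DHS of 699 bp scored 187 (chr11:100800117-100800815) and a DHS of 873 bp scored 144 (chr11:100801047-100801919), the 95.9th and 92.2nd percentile of the list. The outermost GENCODE TSS, which is also the RefSeq start, lay between them in a gap of 231 bp, 39 bp from the former. The other 3 coding TSSs lay under the DHS of score 187. A promoter DHS of score 16.5 followed in intron 1, and another of score 47.4 lay in intron 20 over internal starts of retained-intron transcripts. In the body the strongest other DHS, in intron 1, scored 31.8, and a stretch of 37157 bp held none. In the flank the highest site was intergenic, 44.0 kb upstream of the start (chr11:100844333-100845350), with a score of 80.6. Ptrf, a gene of caveola formation, had a promoter DHS of score 22.9 in the same flank.

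Stat4, the factor of interleukin-12 signals in T and NK cells, had a DHS called over its internal start and none over its outer one. The gene (chr1:52043992-52164032, plus strand) has 2 annotated TSSs, both of coding transcripts. The outer TSS at 52043992 had no DHS within 16712 bp and lay in a stretch of 58839 bp without a DHS. The inner TSS at 52065088, 4 bp from a RefSeq start, was covered by a DHS of 1570 bp with a score of 85.0 (chr1:52064735-52066304), percentile 39.8 among genes with a promoter DHS. All 300 bases of the RefSeq promoter at the inner start (chr1:52064834-52065133, plus strand) were in this DHS, and capitals mark a word of the interferon response element, GAAA, 2 further bases and GAAA.

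Stat4 inner promoter: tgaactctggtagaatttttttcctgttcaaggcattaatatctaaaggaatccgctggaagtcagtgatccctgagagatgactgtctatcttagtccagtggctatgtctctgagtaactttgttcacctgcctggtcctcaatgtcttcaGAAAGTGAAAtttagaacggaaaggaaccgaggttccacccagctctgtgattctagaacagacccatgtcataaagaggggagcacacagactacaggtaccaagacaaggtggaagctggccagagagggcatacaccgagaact

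The body of Stat4 held 11 DHS, 8 of them outside the promoters, a number that few genes reached (percentile 98.9). That rank is by count without regard to gene length, and Stat4 is the longest of the 9 at 120 kb. The 8 DHS fell into 2 groups, introns 2 to 4 and introns 17 to 18, and a stretch of 75723 bp between the groups held none. The highest of the 8 scored 49.3 and lay in intron 4 (chr1:52079214-52079685). Of the DHS in the windows of the 9 genes, those of Stat4 also held the most STAT words with 4 bases between TTC and GAA, the spacing that Stat6 dimers prefer: 10 words in 10.4 kb, or 0.959 per kb, against 0.256 per kb of all DHS. The gene and the spacing were picked after the rates of the 9 genes for both spacings had been seen, so the rate is a description only. A DHS of 870 bp upstream of the inner start (chr1:52061172-52062041, score 37.8) held 4 of the 10. Without it the rate was 0.628 per kb, with a Poisson interval of 0.230 to 1.37 that holds the 0.256 of all DHS. Of all DHS, 33 (0.0695%) held 4 or more, a limit taken from this DHS itself. The 4 words are shown in capitals with 12 bases on either side, read on the plus strand.

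Stat4 word at 52061207: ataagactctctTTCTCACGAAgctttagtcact
Stat4 word at 52061685: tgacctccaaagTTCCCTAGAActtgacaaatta
Stat4 word at 52061800: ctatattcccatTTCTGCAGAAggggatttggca
Stat4 word at 52061980: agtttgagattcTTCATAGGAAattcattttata

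A promoter DHS of score 52.97 lay directly upstream of that site (chr1:52060704-52061097). In it 39.6% of the 31-base words recurred elsewhere in the assembly, the highest share of the 119 DHS, whose median was 0. In the upstream flank a promoter DHS of the gene model Gm8420 scored 42.45. Past the 3′ end an intergenic DHS scored 89.4 (chr1:52170012-52170618), above the 85.0 of the own promoter DHS of Stat4.

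Stat5a and Stat5b, the adjacent factors of interleukin-2, interleukin-7, prolactin and growth hormone signals, had promoter DHS of modest score. The top promoter score of Stat5a (chr11:100720665-100746483, plus strand) was 57, the lowest of the 9 and percentile 24.0 among genes with a promoter DHS. It belonged to a DHS at chr11:100721787-100722366 over the inner of its RefSeq starts. A second DHS of score 16.6 lay over the outer RefSeq start (chr11:100720948-100721302). No DHS followed over 24117 bp of the body. The top promoter score of Stat5b (chr11:100642045-100712038, minus strand) was 91.9, percentile 44.1, and it too came from a site at an inner start, centred 28.7 kb inside the gene (chr11:100682862-100683902). At the outer start of Stat5b a DHS of score 59.1 upstream (chr11:100712059-100712636) and another of score 22.8 downstream (chr11:100711059-100711896) left a gap of 162 bp in which the coding TSS lay. The inner start of Stat5b had 3 further promoter DHS in intron 1, with scores of 32.26, 11.6 and 25.3.

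At the inner starts the paralogues shared sequence. In local alignments of all 66 pairs among the 12 RefSeq promoters of the 9 genes, the inner promoters of Stat5a and Stat5b gave the highest alignment score, 98, and the next pair 33. Over 104 columns 83 bases were identical (79.8%) with 4 gap positions. The blocks lay at chr11:100721695-100721796 on the plus strand for Stat5a and chr11:100683877-100683978 on the minus strand for Stat5b. They ended next to the RefSeq starts, and both starts were covered by a DHS. Most bases of the blocks themselves were outside the DHS. The DHS at the Stat5a block begins only at 100721787. Most of the Stat5b block lay between a DHS that ends at 100683902 and another that begins at 100683978. Capitals mark the identical bases, and both blocks hold a CAGCTG word.

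Stat5a inner promoter: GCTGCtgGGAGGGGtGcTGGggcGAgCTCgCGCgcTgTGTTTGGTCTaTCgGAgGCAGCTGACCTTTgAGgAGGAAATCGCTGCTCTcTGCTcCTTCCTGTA
Stat5b inner promoter: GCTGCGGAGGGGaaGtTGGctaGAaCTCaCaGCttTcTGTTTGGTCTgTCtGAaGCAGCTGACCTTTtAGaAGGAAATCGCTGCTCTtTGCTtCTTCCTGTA

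The windows of Stat5a and Stat5b overlapped, and every DHS of the Stat5a window was also in the window of Stat5b or Stat3. The highest site there without a promoter was in intron 1 of Stat5b, with a score of 63.1 (chr11:100675449-100676476). On the far side of Stat5b, promoter DHS of the endosomal gene Rab5c scored up to 109, of the potassium channel gene Kcnh4 up to 73.9 and of Ghdc, shared with a 7SK gene model, up to 47.8. The site of score 73.9 was also in the promoter of Hcrt, the hypocretin gene. A DHS in the body of Kcnh4 scored 49.9.

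Stat6, the factor of interleukin-4 and interleukin-13 signals, which acts in B cells on the switch to IgE, had a single, wide promoter DHS. It spanned 3107 bp (chr10:127078394-127081500) with a score of 165, percentile 79.4 among genes with a promoter DHS, and covered both TSSs at the 5′ end of the gene (chr10:127080042-127098013, plus strand). The remaining 16513 bp of the body held no DHS and 4 further TSSs. The RefSeq start coincided with the outermost GENCODE TSS, and all 300 bases of its promoter were in the DHS. Past the 3′ end a DHS of 3616 bp, the widest of the 119, lay in promoters of Nab2, a corepressor of EGR factors, of Tmem194 and of the gene model Gm16229 and scored 177. The other promoter DHS of Tmem194, shared with Gm16229 or Gm16230, reached 72.7. Lrp1, an endocytic receptor gene, held a DHS of score 35.8 in its body and a promoter DHS of score 26.02 on the upstream side.

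**Figure D2:**
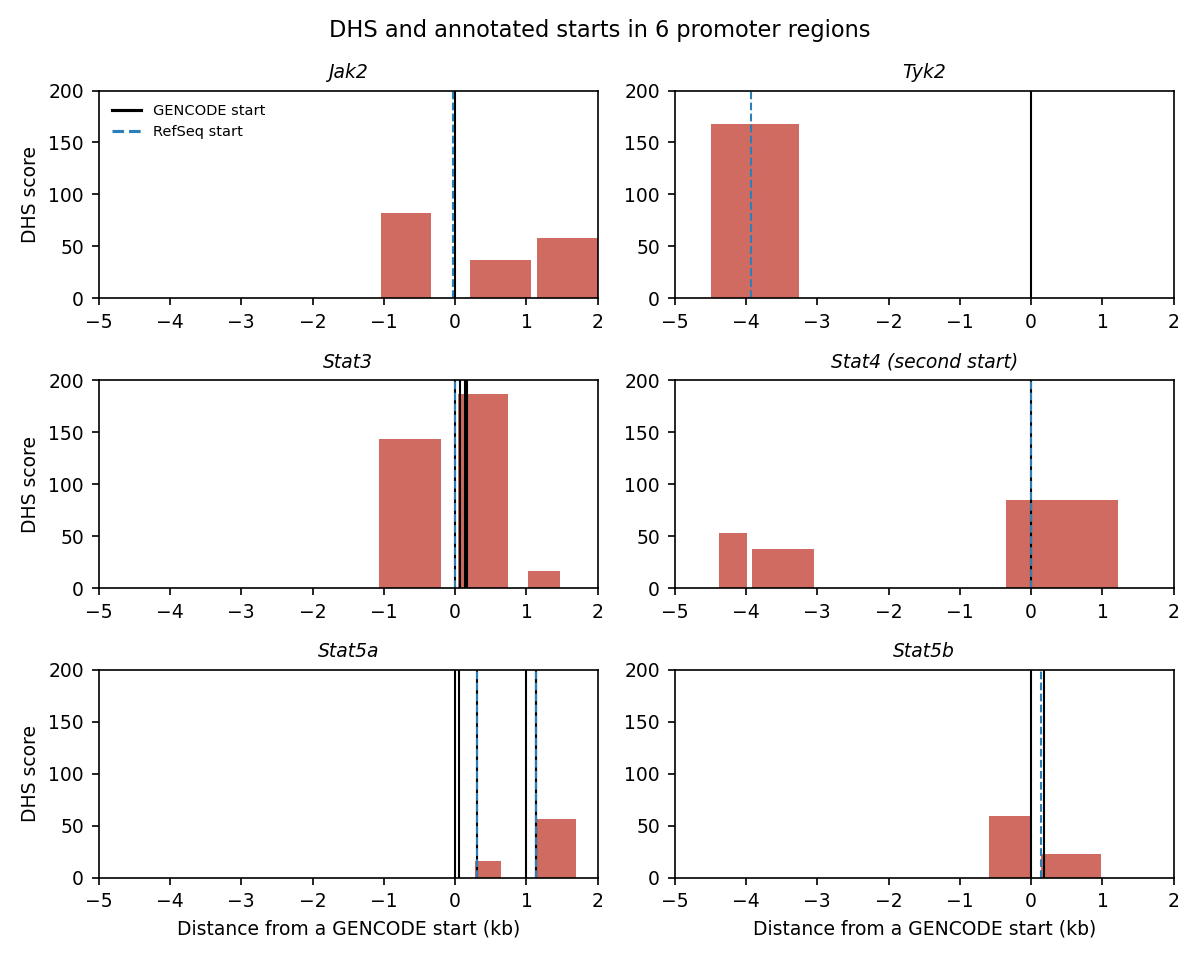
DHS (red blocks, height by score) from 5 kb upstream to 2 kb downstream of a GENCODE start of Jak2, Tyk2, Stat3, Stat4, Stat5a and Stat5b, with GENCODE starts as black lines and RefSeq starts as dashed blue lines. Starts of Jak2, Stat3, Stat5a and Stat5b stand in gaps of 542, 231, 484 and 162 bp between DHS, and the RefSeq start of Tyk2 stands in a DHS 3929 bp before the GENCODE start.

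Starts in gaps between DHS recurred among the 9 genes. In 4 of them, Jak2, Stat3, Stat5a and Stat5b, an annotated TSS was uncovered although a DHS lay within 500 bp on each side, against 12.5% of the protein-coding genes with a promoter DHS. This class was defined after the positions had been seen. A gene entered it when any of its TSSs met the rule, and the comparison was not matched for the number of TSSs per gene. Over all such genes the gap sequence had a median GC content of 73.4% and the DHS around it 55.6%, and in 83.8% of 1574 gaps the gap was richer in GC than both neighbours. Among the 9 genes this held at Jak2 (83.0%) and at Stat5b, where the gap had 81.5% and its neighbours 66.3% and 62.5%. It did not hold at Stat3, where the gap had 61.9% between 66.0% and 48.0%, or at Stat5a, where it had 59.5% between 50.1% and 61.4%. No 31-base word of the 4 gaps recurred in the assembly. The part of base composition in the missing calls was not tested. In all, 23 of the 48 GENCODE TSSs of the 9 genes and 13 of the 24 TSSs of coding transcripts lay under a DHS, as did 9 of the 12 RefSeq starts.

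By top promoter score the genes ran from Jak1 (227) over Stat3 (187), Tyk2 (168), Stat6 (165), Jak3 (119.95), Stat5b (91.9), Stat4 (85.0) and Jak2 (82.5) to Stat5a (57). Of the 9, 5 stood above the median of 101 over protein-coding genes with a promoter DHS and 4 below it. Neighbours such as Tyk2 and Stat6 or Stat4 and Jak2 differ by a few units, and with 1 library no error can be set on any step of this order. The own promoter DHS was the highest of the window in 3 genes, Jak1, Tyk2 and Stat3. In the other windows another site scored higher, as did a promoter of a neighbour for Stat5a, Stat5b and Stat6, a site in the body of a neighbour for Jak3 and an intergenic site for Jak2. In the Stat4 window the intergenic DHS of score 89.4 scored higher than the own promoter but was not the highest site.

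**Figure D3:**
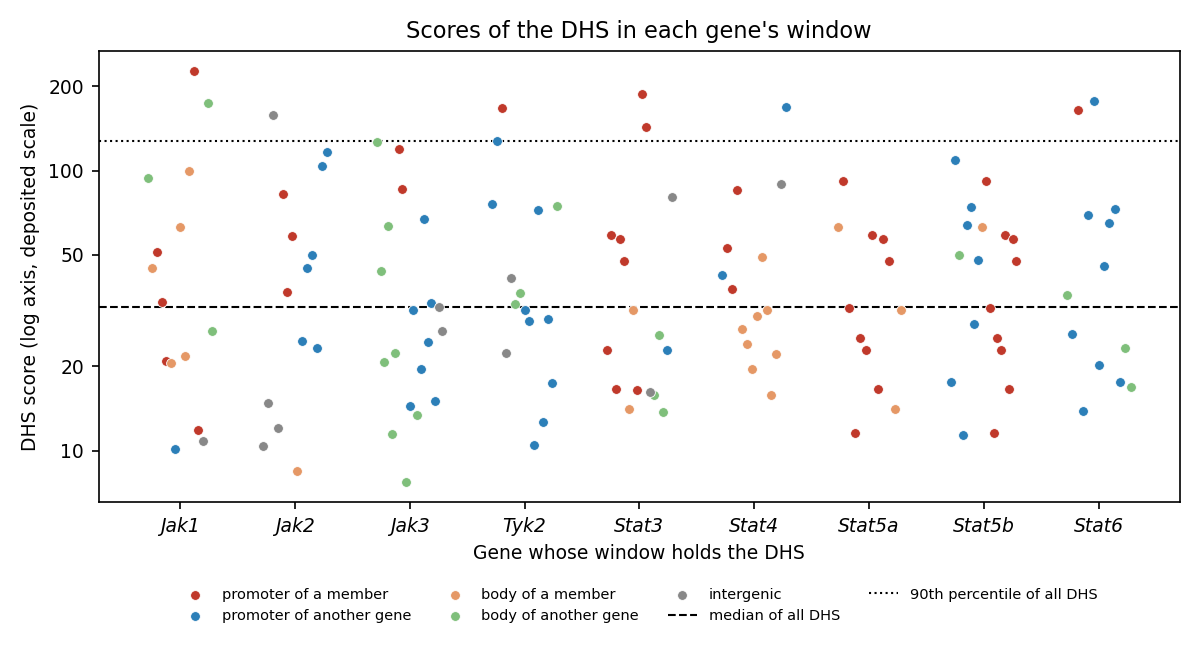
Scores of the DHS in each window on a log axis, coloured by class and ordered within a gene by position, with the median (32.65, dashed) and the 90th percentile (128, dotted) of all DHS. Promoters of the 9 genes (red) reach above the dotted line in Jak1, Tyk2, Stat3 and Stat6, and each window holds sites on both sides of the median.

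STAT words are the DNA palindromes that the products of the STAT genes bind. Their shares in the DHS of the 9 genes differed from those in all DHS by less than the counting error. TTCNNNGAA was present in 20 of 119 DHS (16.8%, 10.6 to 24.8) against 22.7% of all DHS, and the word with 4 bases between the arms in 25 (21.0%, 14.1 to 29.4) against 20.2%. In the central 300 bp of the DHS, which takes width out of the comparison, the former was present in 6 of 119 (5.04%, 1.87 to 10.7) against 8.32% and the latter in 8 (6.72%, 2.95 to 12.8) against 7.16%. All 4 intervals held the share of all DHS. Words were searched on both strands and separately, so that words may overlap. Between the genes the number of words differed: the DHS of Jak2 held 7 of the form TTCNNNGAA in 11.3 kb (0.617 per kb), with a Poisson interval of 0.248 to 1.27 that holds the 0.294 per kb of all DHS, while the 16.6 kb of DHS of Stat5b held 2 and 0 of the respective forms. Both of these words lie in the promoter DHS of Stat5a, which is counted for Stat3 and Stat5a as well, and the 0 words with 4 spaced bases allow up to 0.222 per kb (upper Poisson bound), below the 0.256 of all DHS. These genes too were picked after the rates had been seen. None of the 12 RefSeq promoters held a STAT word, which 8.30% and 6.95% of 32851 RefSeq promoters did for the respective spacing.

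**Figure D4:**
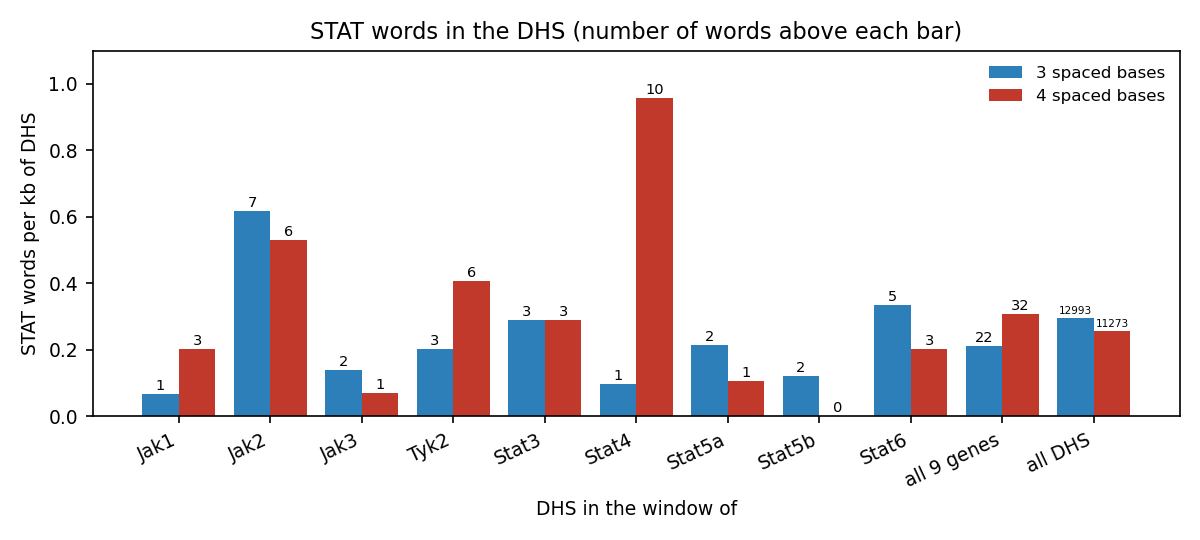
STAT words per kb of DHS in each window, with TTC and GAA set apart by 3 (blue) or 4 (red) bases and the number of words above each bar. The red bar of Stat4 (10 words, 0.959 per kb) and both bars of Jak2 (7 and 6 words) stand above the bars of all DHS. So do the red bars of Tyk2 (0.406), Stat3 (0.289) and all 9 genes together (0.307) and the blue bar of Stat6 (0.336).

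Words of other factors were compared in the same central 300 bp. TGTGGT, a word of the Runx factors, was in 16 of the 119 DHS (13.4%, 7.88 to 20.9) against 20.6% of all DHS, and CAGCTG was in 24 (20.2%, 13.4 to 28.5) against 17.5%. GGGGCGG was in 14 (11.8%, 6.58 to 18.95) against 9.82%. The PU.1 word GAGGAAGT, the octamer ATTTGCAT of the Oct factors and the interferon element were in 2 DHS each (1.68%, 0.204 to 5.94), against 3.61%, 1.63% and 3.96%. Each of these intervals held the share of all DHS. In the 300 bp RefSeq promoters, CAGCTG was in 4 of 12 for the 9 genes and in 16.3% of all, GGGGCGG in 2 and in 23.2%, TGTGGT in 2 and in 16.8%, and the interferon element in 1 and in 3.44%.

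Other genes of the pathway were compared from a list of inhibitors, partners and receptors. Of 49 genes found in the annotation, 41 had a promoter DHS (83.7%, 70.3 to 92.7), against 57% of protein-coding genes and 85.1% of the CpG-rich ones. Every inhibitor of the list did, and all SOCS and PIAS genes and 3 of the 5 phosphatase genes had a CpG-rich start. The 8 SOCS genes, whose products block JAKs or receptors and are themselves induced by STATs, ranged from 58.8 at Socs6 to 190 at Socs4. The 4 PIAS genes, whose products restrain STATs in the nucleus, ranged from 88.3 at Pias2 to 172 at Pias4, and the 5 phosphatase genes from 52.9 at Ptpn11 to 186 at Ptpn6, which encodes SHP-1. Stat2, a STAT of interferon signals outside the 9 genes, scored 177. The 6 adaptors and partners ranged from 78.2 at Stam2, which sorts receptors on endosomes, to 430 at Sh2b3, the adaptor that restrains JAK2.

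The receptor genes were the exception in the list. A promoter DHS was found in 16 of 24 (66.7%, 44.7 to 84.4), an interval that holds the 57% of protein-coding genes. The highest scored 304 at Il10rb, a chain of the interleukin-10 receptor, and the lowest 12.7 at Il12rb2, a chain of the interleukin-12 receptor. Further receptors are named after their values had been seen: Il21r scored 131, Ifnar1 scored 170, Il4ra scored 93.4 and Il2rg, the gene of the common gamma chain, scored 85.1. The 8 without a promoter DHS included Il2rb, Il13ra1, Il6st, Il23r, Epor, Ghr and Lepr, likewise named after the count was known, among them the receptors of erythropoietin, growth hormone and leptin. A missing DHS says that none was called at the depth of this library, not that the chromatin was closed.

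**Figure D5:**
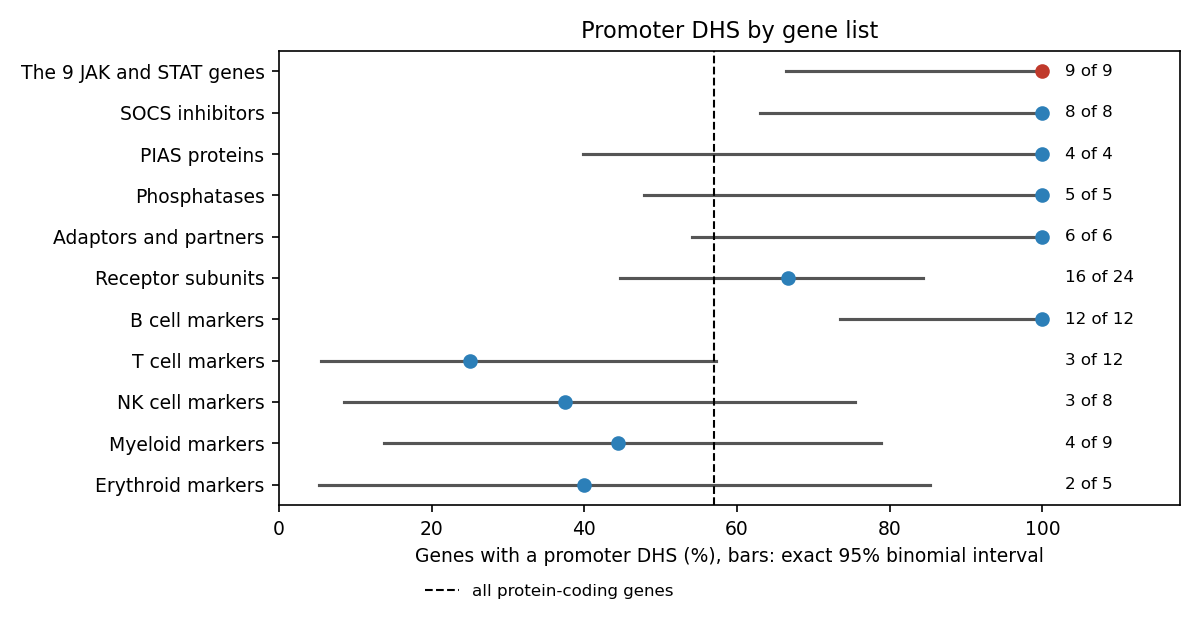
Share of genes with a promoter DHS in each list, with exact 95% binomial intervals, the number of genes at the right and the share of all protein-coding genes (57%) as a dashed line. The 9 JAK and STAT genes, the inhibitor lists and the B cell markers stand at 100%, the receptor subunits at 66.7% and the T cell markers at 25%.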

How the data were processed

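DNase-seq was performed by the authors on 1 DNaseI library of B220-selected splenic B cells, with 1 input library. The deposited list gives each DHS a position, a peak name of the MACS caller and a score attached by the authors, whose scale is not stated. The study's methods state a version and a p-value limit of MACS for ChIP-seq peaks only; those for the DNaseI library are not given in the sources used here. The submitters' processing notes name BWA 0.6.2, SAMtools and mm9. Read counts are absent from it, and the unknown depth limits which DHS could be called. The input library was not analysed here on its own.

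Starts were raised by 1 so that positions count from 1. DHS on chromosomes 1 to 19 and X (47474) were overlapped with GENCODE M1 genes on NCBI build 37, which is mm9; 1 DHS that ran past its chromosome end was left out of sequence searches. Introns are numbered along the coding transcript with most exons. RefSeq promoters (GRCm38.p6; 250 bases before to 50 after each start) were placed on mm9 by exact match; all 12 promoters of the 9 genes matched once. Words of 31 bases were counted over the assembly. Functions were tested on simulated intervals and sequences. Python 3.11.15, numpy 2.4.6, scipy 1.17.1, pysam 0.24.0, Biopython 1.88 and matplotlib 3.10.9 were used.

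Named were all 9 genes with every promoter DHS, the highest DHS of the body and of the flanks, neighbours with a promoter DHS in a window, and the extremes of each pathway list. The genes and lists were chosen with earlier results of these data known. With 1 library no test was made. Results on some further genes are not reported here.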

Additional observations from a re-analysis of the deposited data

How the results depend on the processing

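Of 66 alternative values of 12 summaries, 46 stayed within 1.5 times the count or within the counting interval of the reported value and 20 did not, of which 6 were higher and 14 lower. All 9 genes kept a promoter DHS under each of the planned settings except for windows of 1 kb on each side of a TSS, where Tyk2 had none and so gives no top score, and 7 had a DHS over a TSS in each setting tried. RefSeq starts, chosen as an alternative after seeing the data, gave the same counts of 9 and 7, with Tyk2 covered and Stat3 not. Narrower flanks gave 39 DHS in the windows with the gene body only, at 7.80 per 100 kb, and 57 with 10 kb. The share of own promoter DHS was then 53.8% and 47.4%, and 15.3% with flanks of 100 kb. With only DHS at or above the median score of the list, 59 remained in the windows and 19 in the gene bodies, at 4.88 per 100 kb, with a median score of 67.3, a median width of 1094 bp and a promoter share of 32.2%, and 50.3% of protein-coding genes had a promoter DHS. Merging DHS less than 500 bp apart gave 7.36 per 100 kb and a median width of 1028 bp. With 1 kb on each side of a TSS the promoter share was 15.1%, and 53.7% of protein-coding genes had a promoter DHS; with TSSs of coding transcripts only, 56.3% had. The search of the central 300 bp gave 5.04% and 6.72% for the STAT words with 3 and 4 spaced bases. The cause of these shifts was not tested.

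The top promoter score stayed the same in 7 genes with 1 kb windows and in all 9 with coding TSSs or DHS centres; that of Jak3 fell to 85.8. Of 71 values of single genes under other settings 28 moved, 3 up and 25 down. The number of DHS per window ran from 0 to 11 for gene bodies alone, 3 to 12 with 10 kb and 19 to 32 with 100 kb. By density, compared after seeing the data, Stat4 was lowest with flanks of 50 and 100 kb, Jak2 with 10 kb (4.92 per 100 kb) and Tyk2 for the body alone, while Jak3 was highest with 10, 50 and 100 kb and Stat3 for the body alone (9.18). Depth is unknown and the score has no stated scale, so neither the order of the genes nor a missing DHS has an error.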
